A study of Mus musculus with 15 samples.

Results

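The replication-dependent histone genes, which sit in clusters in the mouse genome, were examined in RNA sequencing of 15 subcutaneous tumors. Members were all genes whose symbol starts with Hist1h, Hist2h, Hist3h or Hist4h and whose normalized count averaged at least 10 over the 15 tumors. The table held 60 such genes among 18279, and all 60 passed the minimum. The lowest member was *Hist2h3c2*, with a mean of 26.1 and at least 11 reads in each tumor, so no gene lay just outside the limit. The tumors were grown from Renca, a mouse renal carcinoma cell line, injected under the skin of female BALB/c mice aged 4 to 6 weeks. Control cells gave 5 of the tumors, and 2 *Pbrm1* knockout clones, named 4 and 18, gave 5 each. Each knockout group is 1 cell clone, so loss of *Pbrm1* and other properties of a clone cannot be told apart. The sample records call the control cells parental Renca, whereas the methods describe Renca cells that received a control CRISPR/Cas9 plasmid, and the groups are called control, clone 4 and clone 18 here. The knockout cells received transient Cas9 plasmids against *Pbrm1* with a repair plasmid that carries puromycin resistance and a red fluorescent protein. The labels describe both untreated mice and mice given antibody to PD-1, and do not say which of these gave the 15 tumors. They also do not name the mouse behind each tumor, so p-values measure the spread between these tumors. *Pbrm1* encodes a subunit of the PBAF chromatin remodeling complex, which binds nucleosomes.

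Histones are the proteins around which DNA is wound. H2A, H2B, H3 and H4 form the core of the nucleosome, and H1 binds the linker DNA between cores. The clustered genes supply most new histone protein while DNA is copied, have no introns as a rule, and give the only animal mRNAs that normally end without a poly(A) tail. Their 3′ end is a short stem-loop that is bound by SLBP and cut just downstream with the help of U7 snRNP. Some members also give longer transcripts with a poly(A) tail, mostly in cells that have left the cycle.

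The 60 members comprised 5 H1, 16 H2A, 16 H2B, 11 H3 and 12 H4 genes. GENCODE M21 (GRCm38, the same assembly as mm10) placed 48 of them on chromosome 13, 8 on chromosome 3, 3 on chromosome 11 and 1, *Hist4h4*, on chromosome 6. A total of 58 were annotated as protein coding and 2 as processed pseudogenes. The pseudogenes were *Hist3h2bb-ps* on chromosome 11 and *Hist1h2al*, which lies away from the main cluster at chr13:51202727-51203065.

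The stem-loop is printed for the members that carry the results below and for the most abundant members of the group, because it is the element that sets this family apart from other mRNAs. Each line gives the GRCm38 position, then the transcript strand 5′ to 3′, with the 16 bases of stem and loop in capitals and the flanking bases in lower case.
*Hist1h4b*, chr13:23757361-23757386: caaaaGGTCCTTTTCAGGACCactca
*Hist1h3a*, chr13:23761885-23761910: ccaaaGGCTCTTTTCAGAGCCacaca
*Hist1h3b*, chr13:23752815-23752840: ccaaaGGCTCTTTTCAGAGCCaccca
*Hist3h2ba*, chr11:58949344-58949369: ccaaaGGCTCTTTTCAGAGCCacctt
*Hist2h2ac*, chr3:96220413-96220438: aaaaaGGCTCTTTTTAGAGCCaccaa
*Hist1h2bb*, chr13:23747198-23747223: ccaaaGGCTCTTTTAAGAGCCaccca
*Hist1h4h*, chr13:23531453-23531478: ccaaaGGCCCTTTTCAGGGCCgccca
*Hist2h4*, chr3:96262934-96262959: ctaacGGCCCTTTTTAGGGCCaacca
*Hist1h1c*, chr13:23739507-23739532: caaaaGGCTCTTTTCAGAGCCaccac
A match to the stem-loop was found in the annotated transcripts of 41 members, in 8 different forms. The form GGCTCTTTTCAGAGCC was in 23 members of H1, H2A, H2B and H3, and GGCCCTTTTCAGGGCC was in 6 members, all of them H4. The form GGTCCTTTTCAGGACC was in *Hist1h4b* and *Hist1h4j* alone among these transcripts. In 21 of the 41 members the annotated transcript ran more than 100 bases past the stem-loop, for example by 840 bases in *Hist1h1c*, 1257 in *Hist2h4* and 4884 in *Hist1h1d*. The other 20 ended within 100 bases of it. In 19 members, among them *Hist2h2ab*, *Hist2h2be* and *Hist3h2bb-ps*, the searched form was not in the annotated transcript.

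Promoters (RefSeq, GRCm38.p6) were at hand for 53 members, as 250 bases before and 50 after the RefSeq start, and were searched on both strands for TATAAA (the core of the TATA box), for the CCAAT box, and for the octamer that OCT1 binds, ATGCAAAT. Those of 4 genes with a changed level and of *Hist2h2ac*, which shares its upstream region with *Hist2h2be*, are printed on the gene's strand with every match in capitals.
*Hist1h4b*, chr13:23756687-23756986: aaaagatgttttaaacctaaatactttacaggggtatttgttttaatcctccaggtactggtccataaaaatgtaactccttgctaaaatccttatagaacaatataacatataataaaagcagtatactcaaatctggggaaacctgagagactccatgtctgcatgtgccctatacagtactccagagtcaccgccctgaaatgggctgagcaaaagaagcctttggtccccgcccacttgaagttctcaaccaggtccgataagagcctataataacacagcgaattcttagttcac
*Hist1h3b*, chr13:23752095-23752394: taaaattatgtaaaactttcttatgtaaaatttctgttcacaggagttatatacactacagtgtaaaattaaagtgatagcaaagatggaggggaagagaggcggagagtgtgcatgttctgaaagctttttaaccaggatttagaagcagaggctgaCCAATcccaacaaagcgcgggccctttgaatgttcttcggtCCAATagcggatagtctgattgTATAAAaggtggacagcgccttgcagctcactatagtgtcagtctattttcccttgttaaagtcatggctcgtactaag
*Hist3h2ba*, chr11:58948661-58948960: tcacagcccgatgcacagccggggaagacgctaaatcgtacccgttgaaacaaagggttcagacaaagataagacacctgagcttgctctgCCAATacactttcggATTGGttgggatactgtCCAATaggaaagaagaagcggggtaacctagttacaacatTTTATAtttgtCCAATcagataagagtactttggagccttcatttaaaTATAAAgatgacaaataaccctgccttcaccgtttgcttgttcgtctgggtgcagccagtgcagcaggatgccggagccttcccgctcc
*Hist2h2ab*, chr3:96219635-96219934: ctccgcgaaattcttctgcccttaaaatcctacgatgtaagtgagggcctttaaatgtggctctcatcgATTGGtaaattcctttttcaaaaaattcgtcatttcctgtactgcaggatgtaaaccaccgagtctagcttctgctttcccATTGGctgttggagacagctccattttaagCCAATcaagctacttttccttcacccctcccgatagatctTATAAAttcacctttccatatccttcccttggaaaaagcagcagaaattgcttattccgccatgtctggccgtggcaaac
*Hist2h2ac*, chr3:96220831-96221130: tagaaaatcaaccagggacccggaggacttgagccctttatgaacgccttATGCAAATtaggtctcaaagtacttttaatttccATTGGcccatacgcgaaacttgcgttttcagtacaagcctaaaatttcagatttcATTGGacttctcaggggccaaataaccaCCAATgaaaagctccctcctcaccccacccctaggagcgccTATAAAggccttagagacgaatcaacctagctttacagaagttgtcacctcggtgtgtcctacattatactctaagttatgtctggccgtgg
TATAAA was in 31 of 53 member promoters (58.49%), against 15.67% of the 27025 promoters of all genes. CCAAT was in 45 of 53 (84.91%), against 41.06%, and the octamer in 12 of 53 (22.64%), against 1.969%. The families differed in these letters: CCAAT was in each of the 5 H1, 15 H2A, 13 H2B and 9 H3 promoters but in 3 of 11 H4 promoters, and the octamer was in 6 of 15 H2A and 6 of 13 H2B promoters and in none of the others. The *Hist1h4b* window held none of the 3 motifs. The *Hist1h3b* window held TATAAA at -29 and CCAAT at -92 and -51 relative to the start, and that of *Hist2h2ab* held TATAAA at -30 and CCAAT at -181, -100 and -70. A match is a run of letters and was not tested as a binding site.

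Because histone genes are near copies of each other and some overlap other genes, reads can be hard to place. Of the 50-base windows of each member's exons, a median of 49.6% occurred in another annotated gene, with 67.3% in H2A, 60.4% in H3, 44.0% in H2B, 34.2% in H4 and 2.25% in H1. A total of 29 members shared at least 50% of their windows. Windows were compared on both strands, so genes that overlap at 1 place also share them. *Hist2h2aa2*, *Hist2h2bb* and *Hist2h3b* shared all of their windows, mainly with *Gm20632* or *Gm20628*, which overlap them on the other strand. *Hist1h1e* and *Hist3h2a* shared mainly with *Hist1h2be* and *Trim17*, which overlap them on the same strand. *Hist1h1a*, *Hist1h1b* and *Hist2h2be* shared none. Altogether 19 members were overlapped by a gene on the other strand, and the sources do not say whether counting used strand. Values of members with many shared windows are uncertain to that extent.

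Depth ran from 32924414 to 49099168 reads on genes (median 40860659). In each of the 30 within-group pairs of tumors the counts differed beyond sampling noise, with a chi-square of 16.95 to 156.5 per degree of freedom. *Pbrm1* itself averaged 9012 ± 956 normalized counts (SD, n = 5) in the control group against 2794 ± 205 (SD, n = 10) with knockout, with no overlap (7451.5 to 9870.6 against 2483.8 to 3137.5) and a log2 difference of -1.69 (SE 0.068, limma adjusted p = 2.94e-11). As a check of the tissue, the renal markers *Pax8*, *Cdh16* and *Krt8* averaged 3390, 23210 and 54190 normalized counts.

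Together the members took 0.435% to 0.768% of the normalized counts in control tumors (0.601 ± 0.121, SD, n = 5), 0.506% to 0.730% in clone 4 (0.621 ± 0.0895, SD, n = 5) and 0.488% to 0.775% in clone 18 (0.593 ± 0.124, SD, n = 5). The ranges overlapped nearly whole, and the difference between group means was well under the spread within a group. By family, H4 held the greatest share of the member counts, from 29.1% in tumor 2 to 38.0% in tumor 13, followed by H1 with 19.0% to 26.4% and H2B with 20.6% to 24.1%. H2A held 9.69% to 13.6% and H3 8.37% to 9.89%. H1 held 24.5% ± 0.993 (SD, n = 5) in control, 24.4% ± 1.49 in clone 4 and 22.3% ± 2.21 in clone 18.

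**Figure D1:**
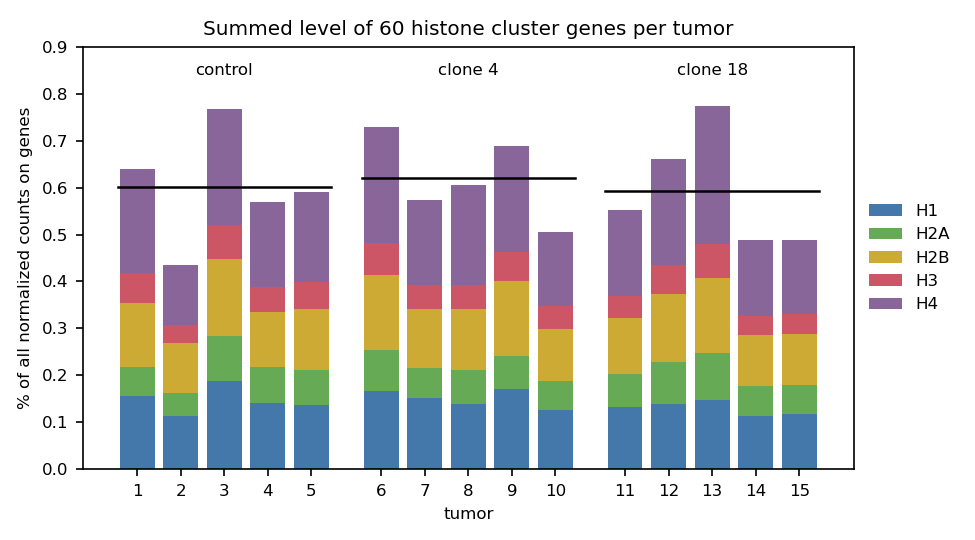
Share of all normalized counts on genes, in percent, that fell on the 60 histone cluster genes in each of 15 tumors, stacked by family, with the mean of each group as a black line. Tumors 3, 6 and 13 were the highest of their groups at 0.768%, 0.730% and 0.775%, tumors 2, 10 and 15 the lowest at 0.435%, 0.506% and 0.488%, and the group means lay between 0.593% and 0.621%.

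Per kilobase of annotated exon, the level was highest for *Hist1h4h* (39080 normalized counts per kilobase), *Hist2h2ac* (35790), *Hist1h2bb* (26540) and *Hist2h2bb* (22650), and lowest for *Hist3h2a* (14.9) and *Hist2h3c2* (25.6). The annotated lengths differ between sources. *Hist1h1d*, for example, spans 7425 bases in GENCODE and 776 in RefSeq, which alone changes its level per length. Below, the 10 members with the highest mean normalized count are given in every tumor by family, as levels of each gene across tumors.

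Among H1 linker histones, *Hist1h1c* had the highest normalized count of all members, at 29675.5, 24146.6, 34281.0, 31560.7 and 27776.9 in control tumors 1 to 5, 34891.1, 32027.2, 28001.3, 38243.4 and 28656.6 in clone 4 tumors 6 to 10, and 27750.4, 29075.4, 31103.7, 25653.4 and 25849.7 in clone 18 tumors 11 to 15. It was nearly level across the groups, with 29490 ± 3833 (SD, n = 5) in control against 30130 ± 4012 (SD, n = 10) in knockout. *Hist1h1d* stood at 18448.7, 10988.2, 21387.6, 13913.6 and 13705.0 in control tumors 1 to 5, 16131.2, 14833.4, 14559.2, 17353.6 and 12833.9 in clone 4 tumors 6 to 10, and 13066.5, 12878.5, 13313.5, 9645.7 and 11432.5 in clone 18 tumors 11 to 15. *Hist1h1e* stood at 12409.4, 10326.8, 16430.2, 12640.6 and 11942.4 in control tumors 1 to 5, 14580.6, 13598.8, 13314.8, 14081.3 and 12837.3 in clone 4 tumors 6 to 10, and 12752.2, 13317.8, 15061.0, 9782.0 and 11058.6 in clone 18 tumors 11 to 15. In both, tumor 3 was the highest of all 15, and the control and knockout ranges overlapped. Their log2 differences between knockout and control were 0.03 (*Hist1h1c*, SE 0.098), -0.18 (*Hist1h1d*, SE 0.142) and 0.04 (*Hist1h1e*, SE 0.103), none past the threshold.

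Among core histones, the H2A gene *Hist2h2ac* stood at 17833.6, 13211.2, 24815.9, 20105.6 and 18363.5 in control tumors 1 to 5, 20726.2, 15855.9, 18719.0, 18356.0 and 16508.9 in clone 4 tumors 6 to 10, and 17567.9, 22088.0, 24536.6, 15158.7 and 15343.0 in clone 18 tumors 11 to 15. The H2B gene *Hist1h2be* stood at 14581.9, 12530.4, 16947.6, 12949.9 and 14364.8 in control tumors 1 to 5, 16715.6, 14589.8, 14393.1, 18238.8 and 12549.9 in clone 4 tumors 6 to 10, and 12574.6, 16022.2, 18270.6, 11902.0 and 13059.2 in clone 18 tumors 11 to 15. The H2B gene *Hist1h2bb* stood at 14455.4, 10153.3, 16467.3, 12456.9 and 13004.0 in control tumors 1 to 5, 15082.0, 12161.6, 12946.8, 19040.9 and 12812.8 in clone 4 tumors 6 to 10, and 12046.0, 15389.8, 14364.6, 11180.3 and 10647.7 in clone 18 tumors 11 to 15. Tumor 3 was the highest control and tumor 2 the lowest for each of the 3 genes, and no group stood apart. The log2 differences between knockout and control were -0.02 for *Hist2h2ac* (SE 0.131), 0.05 for *Hist1h2be* (SE 0.107) and 0.03 for *Hist1h2bb* (SE 0.124).

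The H4 genes encode the same protein from many copies. *Hist2h4* stood at 26349.5, 14545.6, 26760.4, 21125.3 and 20936.0 in control tumors 1 to 5, 31717.5, 21716.5, 26909.2, 31183.4 and 21737.8 in clone 4 tumors 6 to 10, and 24452.2, 28652.2, 37165.5, 20148.4 and 20146.9 in clone 18 tumors 11 to 15. *Hist1h4h* stood at 17747.7, 12014.3, 21955.1, 16263.3 and 17795.8 in control tumors 1 to 5, 18564.2, 16034.6, 19463.0, 20779.4 and 16295.0 in clone 4 tumors 6 to 10, and 17721.0, 22305.8, 28297.2, 15252.9 and 15010.5 in clone 18 tumors 11 to 15. In these genes tumor 13 was the highest of all tumors and tumor 2 the lowest. *Hist4h4*, the lone member on chromosome 6, stood at 16902.9, 8820.7, 20757.0, 14497.4 and 14184.0 in control tumors 1 to 5, 16059.8, 12764.6, 13751.5, 15782.3 and 13005.5 in clone 4 tumors 6 to 10, and 12152.1, 14718.0, 17949.9, 10789.4 and 10530.2 in clone 18 tumors 11 to 15. *Hist1h4c* stood at 13076.7, 6197.0, 11349.4, 10541.9 and 10733.9 in control tumors 1 to 5, 15114.8, 10578.3, 12906.0, 10747.6 and 6772.9 in clone 4 tumors 6 to 10, and 8977.3, 11281.5, 18206.4, 8043.9 and 9268.5 in clone 18 tumors 11 to 15. The lowest *Hist1h4c* values were in tumors 2 and 10, 1 control and 1 knockout tumor. Knockout minus control log2 differences were 0.27 for *Hist2h4* (SE 0.157), 0.15 for *Hist1h4h* (SE 0.143), -0.09 for *Hist4h4* (SE 0.158) and 0.09 for *Hist1h4c* (SE 0.200), none past the threshold.

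Many members were high or low in the same tumors of the control and clone 18 groups, whereas in clone 4 the lowest values were spread over several tumors. Across the 5 control tumors, tumor 3 held the highest value for 47 of 60 members and tumor 2 the lowest for 49. In clone 4, tumor 6 was the highest for 41 members, but the lowest value fell in tumor 7 for 23, in tumor 10 for 16 and in tumor 9 for 15, and tumor 9 was also the highest for 11. In clone 18, tumor 13 was the highest for 39 and tumor 14 the lowest for 46. The spread of a typical member within a group was wider than that of genes at large. The median log2-scale SD was 0.169 in control, 0.180 in clone 4 and 0.186 in clone 18 over genes with a mean of at least 10. Over the members it was 0.407, 0.262 and 0.473. The widest was *Hist1h2ap* in control (0.941), *Hist1h2bl* in clone 4 (1.02) and *Hist1h2bp* in clone 18 (0.990), and the narrowest were *Hist1h2be* in control (0.171), *Hist1h1e* in clone 4 (0.0711) and *Hist2h2be* in clone 18 (0.0717). *Hist1h2bl* was set apart by tumor 8, at 630.6 normalized counts against 2684.6 to 3252.9 in the other clone 4 tumors. *Hist1h2bp* stood at 183.8 in tumor 10 against 505.5 to 597.9 in the other tumors of clone 4.

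**Figure D2:**
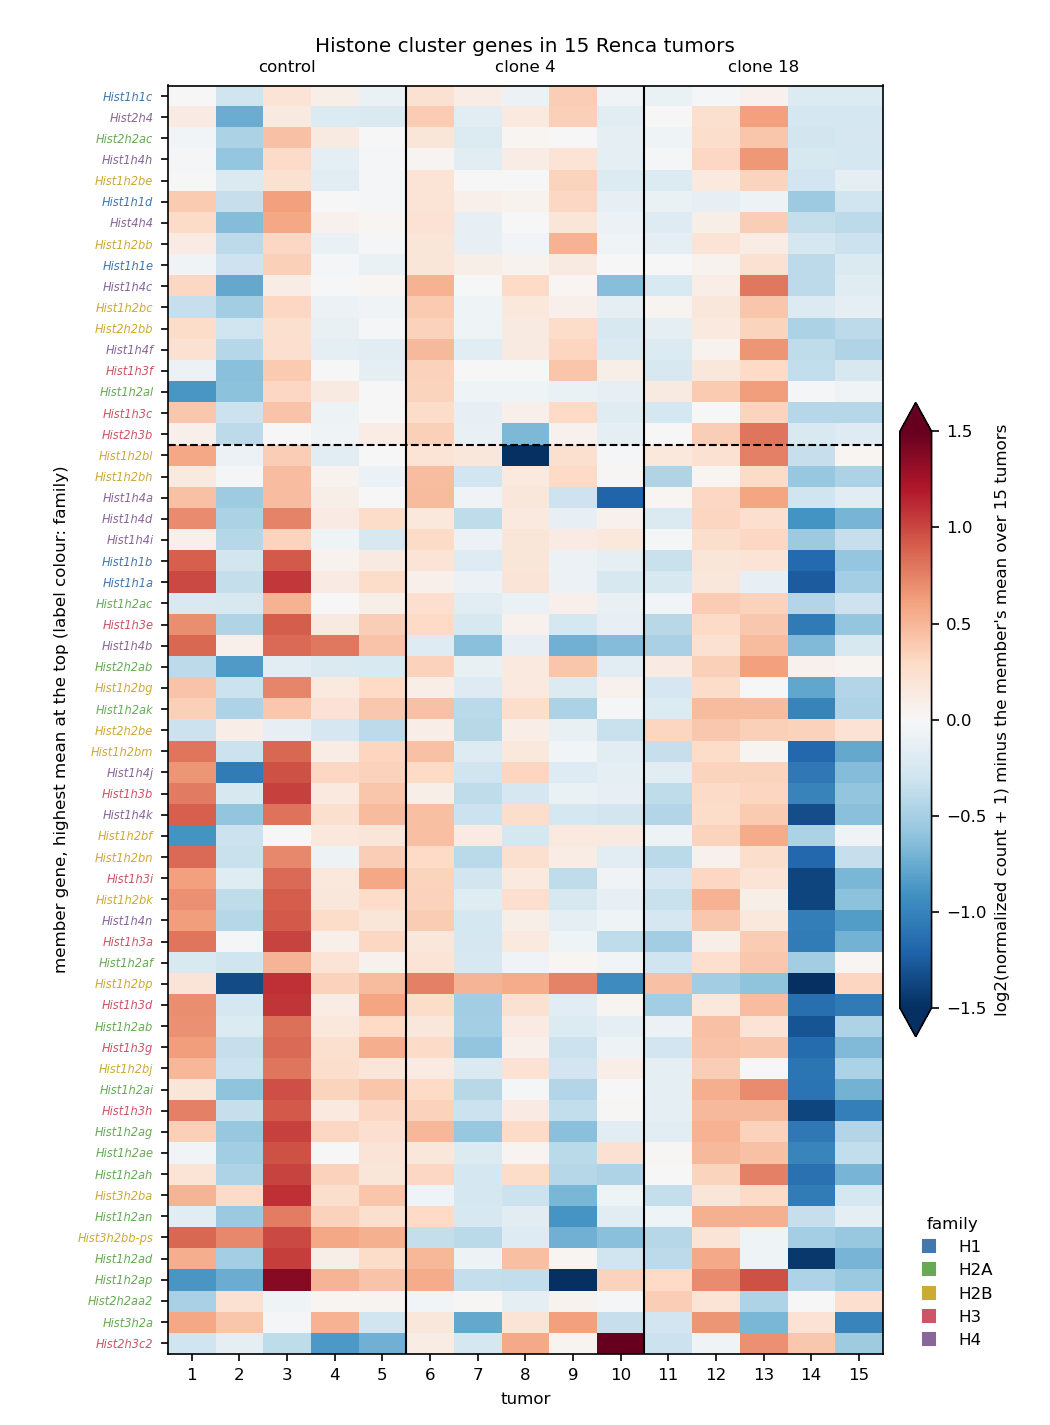
Each of the 60 histone cluster genes (rows, highest mean at the top, labels coloured by family) in each of 15 tumors (columns), as log2(normalized count + 1) minus the mean of that gene over all tumors. The dashed line marks a mean of 5000, and columns 3 and 14 show most members high and low, with tumor 3 highest of the control tumors for 47 genes and tumor 14 lowest of clone 18 for 46.

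Other quantities also differed between these tumors. The summed level of 27 DNA replication and proliferation genes was 187800 to 218300 normalized counts in control tumors, with tumor 3 highest and tumor 2 at 210400. It was 191500 to 225000 in clone 4, with tumor 6 highest, and 178600 to 234200 in clone 18, with tumor 12 highest, tumor 14 lowest and tumor 13 at 198600. The summed level of 9 RNAs without a poly(A) tail, such as *Rmrp*, *Rpph1* and *Rn7sk*, was 1480000 in tumor 2 and 1871000 to 2272000 in the other control tumors. In clone 18 it was 2569000 in tumor 13 and 1672000 to 2254000 in the others, and in clone 4 it was 1587000 to 2282000, with 1995000 in tumor 6. The kit that made the libraries is not given in the sources used here, and the part of these quantities in the members' levels was not tested.

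Whether loss of *Pbrm1* went with a change in histone gene expression was addressed by comparing 10 knockout with 5 control tumors. *Hist1h4b*, *Hist1h3a*, *Hist1h3b*, *Hist3h2ba* and the pseudogene *Hist3h2bb-ps* fell, and *Hist2h2ab* rose. These 6 of 60 members (10.0%) passed an adjusted p of 0.05 in limma over 18250 genes, 1 higher and 5 lower. Over all genes, 22.1% passed, with 9.23% higher and 12.9% lower, so with all 15 tumors the share called was smaller among the members. The mean was below control for 42 members and above for 18, and the median log2 difference was -0.21 against -0.02 over all genes. The share called depended on tumor 2. Without it 16 members passed, 1 higher and 15 lower, which was 26.7% of the members against 17.6% of all genes, so the share was then larger among the members. By family, 0 of 5 H1, 1 of 16 H2A, 2 of 16 H2B, 2 of 11 H3 and 1 of 12 H4 members passed, and the median log2 differences were -0.18, -0.20, -0.22, -0.54 and -0.12. At an unadjusted p under 0.05, 17 members (28.3%) passed, 2 of them H1, against 33.6% of all genes, and edgeR and DESeq2 on recovered reads each called 1 H1 member.

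**Figure D3:**
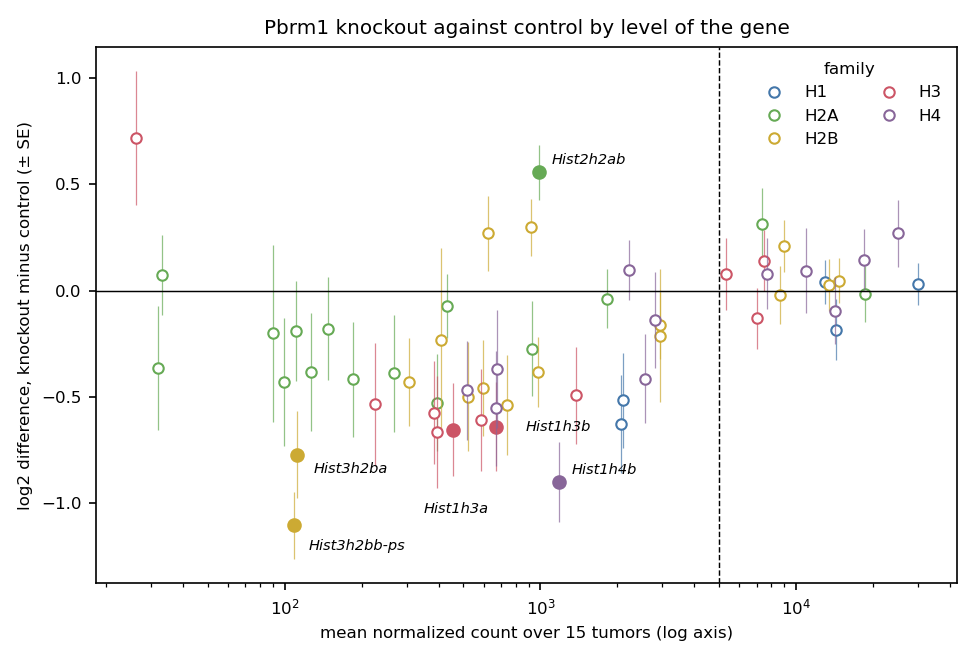
Log2 difference of the 10 knockout tumors from the 5 control tumors (± SE) against the mean normalized count over 15 tumors on a log axis, for 60 histone cluster genes coloured by family, with filled points past an adjusted p of 0.05. The 17 members right of the dashed line at a mean of 5000 lie between -0.18 and 0.31 and none is filled, and 37 of the 43 left of it lie below 0.

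The difference varied with the level of the gene. A split at a mean of 5000 normalized counts, chosen after the values were seen, left 17 members above, of which 12 had a higher and 5 a lower mean in knockout tumors, with 0 called in limma, edgeR or DESeq2 (0 also at an unadjusted p under 0.05) and log2 differences from -0.18 to 0.31. Among those 17, the clone 4 mean was above control in 12 and below in 5, and the clone 18 mean in 8 and 9. At an unadjusted p under 0.05 in limma, 2 of them passed in clone 18 and 0 in clone 4. Of the 43 members under 5000, 37 had a lower and 6 a higher mean in knockout tumors, the median was -0.41 and 6 (14.0%) were called. Over all genes the medians were -0.03 at 5000 and above, where 23.9% were called, and -0.01 between 10 and 5000, where 23.2% were called. The summed level of the 43 lower members was 27513 to 54080 in control, 29800 to 41296 in clone 4 and 21049 to 43612 in clone 18, so these ranges overlapped. Shared windows were more frequent in the lower group, with at least 50% shared in 25 of 43 members, against 4 of 17. Members with at least 50% shared windows had a median log2 difference of -0.39 and those with fewer -0.14, with 3 called in each. By 3′ end, the median was -0.14 in the 21 members whose transcripts run past the stem-loop, -0.42 in the 20 that end near it and -0.27 in the 19 with no match, with 1, 3 and 2 called. No difference between these subsets was tested.

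The pseudogene *Hist3h2bb-ps* (chr11:58954048-58954512, minus strand, processed pseudogene of an H2B gene) showed the largest fall. Its normalized count was 182.2, 166.5, 199.4, 150.2 and 145.9 in control tumors 1 to 5, 78.1, 75.5, 87.5, 60.3 and 64.6 in clone 4 tumors 6 to 10, and 74.5, 114.4, 95.6, 70.2 and 67.2 in clone 18 tumors 11 to 15. Every knockout tumor lay below every control tumor, since the lowest control value was 145.9 and the highest knockout value 114.4. Its mean fell from 169 ± 22.3 (SD, n = 5) to 78.8 ± 16.4 (SD, n = 10), a log2 difference of -1.10 (SE 0.158, adjusted p = 8.52e-05). Its protein-coding neighbour *Hist3h2ba* (chr11:58948920-58949533, plus strand) encodes an H2B and shares 125 windows with it, which was 22.1% of its own. Its normalized count was 149.7, 128.6, 224.4, 125.5 and 140.6 in control tumors 1 to 5, 100.3, 87.0, 83.6, 64.9 and 100.3 in clone 4 tumors 6 to 10, and 81.6, 119.3, 129.6, 50.1 and 87.3 in clone 18 tumors 11 to 15. Of 10 knockout tumors, 9 lay below every control tumor, and tumor 13, at 129.6, was within the control range, where tumor 3 stood highest. The log2 difference was -0.77 (SE 0.205, adjusted p = 0.0116), from a control mean of 154 ± 40.7 (SD, n = 5) to 90.4 ± 23.5 (SD, n = 10). The third gene of that cluster, *Hist3h2a*, starts 173 bases from *Hist3h2bb-ps* in the opposite direction and differed by -0.36 (SE 0.290, adjusted p = 0.414), on 32.0 normalized counts. Within 50000 bases of *Hist3h2ba* or *Hist3h2bb-ps*, *Rnf187*, *Trim11* and *Zfp39* differed by -0.14, -0.01 and 0.20. Neither these nor the other genes there with a mean of at least 10 that are no members passed the threshold.

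*Hist1h4b* (chr13:23757013-23757409, plus strand, coding for H4) fell most among the coding members. Its normalized count was 1994.9, 1153.8, 1984.5, 1892.6 and 1479.2 in control tumors 1 to 5, 958.5, 710.0, 1008.6, 664.5 and 697.3 in clone 4 tumors 6 to 10, and 784.8, 1282.1, 1530.2, 690.6 and 925.8 in clone 18 tumors 11 to 15. In 8 of 10 knockout tumors it was below every control tumor, whereas tumors 12 and 13 overlapped the control range, whose lowest value was in tumor 2. The mean fell from 1701 ± 372 (SD, n = 5) to 925 ± 287 (SD, n = 10), a log2 difference of -0.90 (SE 0.188, adjusted p = 0.00227). Of its windows 75.9% occurred in other genes, mainly *Hist1h4a*, for which the log2 difference was -0.14 (SE 0.227, adjusted p = 0.722). The annotation also has *4930558J22Rik* on the other strand of *Hist1h4b*, which was not analysed here.

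*Hist1h3b* (chr13:23752267-23752886, plus strand) and *Hist1h3a* (chr13:23761853-23762386, minus strand) encode H3 and lie on the 2 sides of *Hist1h4b* at distances of 4127 and 4444 bases. *Hist1h4a*, which was not called (-0.14), lies between *Hist1h4b* and *Hist1h3a*. *Hist1h3a* stood at 746.2, 420.1, 866.1, 449.3 and 529.7 in control tumors 1 to 5, 481.2, 357.4, 473.5, 407.3 and 328.6 in clone 4 tumors 6 to 10, and 297.0, 454.0, 555.0, 206.5 and 260.8 in clone 18 tumors 11 to 15. *Hist1h3b* stood at 1083.9, 532.9, 1285.3, 701.4 and 844.8 in control tumors 1 to 5, 673.1, 484.5, 531.2, 589.4 and 581.5 in clone 4 tumors 6 to 10, and 483.7, 767.8, 789.3, 313.7 and 417.6 in clone 18 tumors 11 to 15. Control tumors 1 and 3 were high and tumor 2 low in both, and 6 of 10 knockout tumors lay below every control tumor for *Hist1h3a* and 5 of 10 for *Hist1h3b*. The log2 differences were -0.66 (*Hist1h3a*, SE 0.219, adjusted p = 0.0392) and -0.64 (*Hist1h3b*, SE 0.211, adjusted p = 0.0371). Both calls were close to the threshold. *Hist1h3a* lost it without tumor 1, 3, 5, 7, 10, 11, 14 or 15, with adjusted p up to 0.133, and *Hist1h3b* without tumor 1, 3, 5, 7, 8, 11 or 15, with adjusted p up to 0.129. They shared 49.5% and 60.4% of their windows with other genes, mainly *Hist1h3h*, which differed by -0.54 (SE 0.287, adjusted p = 0.203).

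These 3 genes lie in a stretch of chromosome 13 where the members did not all move alike. Going along it, *Hist1h1c*, *Hist1h3c* and *Hist1h2bb* differed by 0.03, -0.13 and 0.03, *Hist1h2ab* by -0.53 (adjusted p = 0.113), *Hist1h4a* by -0.14 and *Hist1h1a* by -0.63 (adjusted p = 0.0593), none of them past the threshold. *Hfe*, a regulator of iron uptake that lies 46159 bases from *Hist1h4b*, fell (-0.21, SE 0.071, adjusted p = 0.0437). On the chromosomes that carry members, the 547 other genes of chromosome 13 had a median log2 difference of -0.01, as had those of chromosomes 3 and 11 (-0.01 each), and those of chromosome 6, which carries *Hist4h4*, had a median of 0.06. The 48 members on chromosome 13 had a median of -0.32, with 36 below and 12 above control. The 8 on chromosome 3 had a median of 0.17, with 2 below and 6 above.

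*Hist2h2ab* (chr3:96219865-96220308, plus strand, coding for H2A) was the only member past the threshold with a rise between knockout and control. Its normalized count was 725.3, 528.4, 856.8, 823.6 and 817.3 in control tumors 1 to 5, 1219.9, 882.0, 1060.3, 1274.3 and 855.5 in clone 4 tumors 6 to 10, and 1044.0, 1226.7, 1467.4, 1000.4 and 986.3 in clone 18 tumors 11 to 15. In 9 of 10 knockout tumors it was above every control tumor, and tumor 10, at 855.5, was just under control tumor 3. The mean rose from 750 ± 133 (SD, n = 5) to 1102 ± 192 (SD, n = 10), a log2 difference of 0.56 (SE 0.129, adjusted p = 0.00497). It is overlapped on the other strand by *Gm15444*, which differed by 0.01 (SE 0.386), and shares 64.8% of its windows, mainly with that gene. *Hist2h2ac*, 53 bases away, differed by -0.02. *Hist2h3c2*, 17800 bases away, had a larger log2 difference of 0.72 (SE 0.315, limma adjusted p = 0.116), short of the threshold, on a mean of 26.1. Within 50000 bases of *Hist2h2ab* lay 19 genes with a mean of at least 10. Of these, 4 passed the threshold, namely *Sv2a*, *Sf3b4* (-0.25), *Gm17690* (0.64) and *Gm38227* (0.71). Over all genes, 22.1% passed, and 23.8% in the fit of genes with a mean of at least 10. *Sv2a*, a synaptic vesicle protein gene 24344 bases from *Hist2h2ab*, fell by 2.62 on the log2 scale (SE 0.306, adjusted p = 1.24e-05), and *Bola1*, which lies between them, differed by 0.15 (adjusted p = 0.310).

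**Figure D4:**
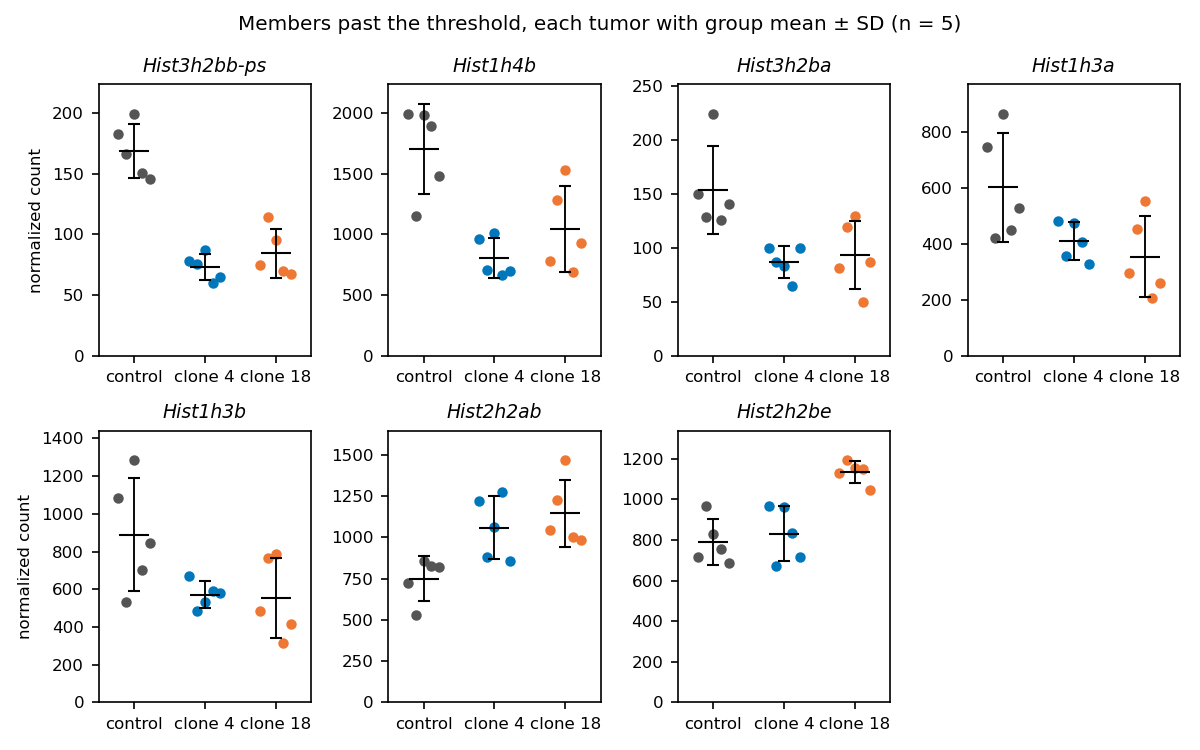
Normalized count of the 6 members past the threshold between knockout and control, and of *Hist2h2be*, which passed it between the clones, in each tumor (points, 5 per group) with the mean ± SD of each group as a bar. For *Hist3h2bb-ps* all 10 knockout tumors lie under the lowest control value of 145.9, and for *Hist2h2be* the 5 clone 18 tumors lie at 1044.5 and above.

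Many H2A and H2B genes are arranged head to head and share the region between their starts. There were 10 such pairs with starts within 500 bases, 20 members in all. Of these members 1 (*Hist3h2bb-ps*) was called between knockout and control, or 5.0% against 22.1% of all genes. In 7 pairs both partners had a lower mean in knockout tumors, and in 3 pairs the partners differed in sign. *Hist1h2ac* and *Hist1h2bc*, 251 bases apart, differed by -0.04 and 0.21, and *Hist1h2ad* and *Hist1h2bf*, 185 bases apart, by -0.43 and 0.27. *Hist2h2ac* and *Hist2h2be*, 239 bases apart, differed by -0.02 and 0.30, and their levels also differed, with 35790 and 350 normalized counts per kilobase.

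Each clone was then compared with the same 5 control tumors, so these comparisons are not independent of each other. In clone 4, 4 of 60 members (6.67%) passed the threshold, 1 higher and 3 lower, against 16.8% of all genes, 6.79% higher and 10.0% lower. In clone 18, 11 of 60 (18.3%) passed, 2 higher and 9 lower, against 24.7%, 10.4% higher and 14.2% lower. *Hist3h2bb-ps* differed by -1.20 in clone 4 (SE 0.179, adjusted p = 0.000175) and -1.01 in clone 18 (SE 0.179, adjusted p = 0.000598). *Hist1h4b* differed by -1.06 in clone 4 (SE 0.206, adjusted p = 0.00165) and -0.74 in clone 18 (SE 0.206, adjusted p = 0.0146). For *Hist3h2ba* the values were -0.79 (adjusted p = 0.0305) and -0.75 (adjusted p = 0.0306), and for *Hist2h2ab* 0.50 (adjusted p = 0.0287) and 0.61 (adjusted p = 0.00621). With 1 tumor left out, *Hist3h2ba* passed in 10 of 15 fits in each clone. It missed the threshold without tumor 1, 3, 7, 8 or 9 in clone 4 (adjusted p up to 0.0859) and without tumor 1, 3, 11, 14 or 15 in clone 18 (up to 0.0885). *Hist2h2ab* passed in 10 of 15 fits in clone 4, and missed it without tumor 1, 2, 6, 8 or 9 (up to 0.0789) and in limma without trend (0.0541).

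The other 7 members called in clone 18 were *Hist1h1a* (-0.81), *Hist1h2bm* (-0.76), *Hist1h3a* (-0.80), *Hist1h3b* (-0.70), *Hist1h3d* (-0.86), *Hist1h3i* (-0.77) and *Hist2h2be* (0.53), with adjusted p from 0.0021 to 0.0467. In clone 4 the same genes differed by -0.45, -0.32, -0.51, -0.58, -0.47, -0.45 and 0.07, none past the threshold. *Hist1h1a*, an H1 gene with no shared window, averaged 2761 ± 1112 in control, 1901 ± 220 in clone 4 and 1550 ± 508 in clone 18 (SD, n = 5 each). The clone 18 count rested on few tumors. It was 4 without tumor 1, 14 or 15, 5 without tumor 3 or 11 and 7 without tumor 5, or 6.67% to 11.7% of the members, against 20.7% to 23.2% of all genes in those fits. It was 23 without tumor 2 (38.3%, against 21.4% of all genes), 17 without tumor 12 (28.3%, against 22.0%) and 15 without tumor 13 (25.0%, against 22.2%), where the share was larger among the members. The clone 4 count was 2 (3.33%) without tumor 1, 8 or 9, against 13.2% to 14.8% of all genes. *Hist3h2bb-ps* and *Hist1h4b* stayed past the threshold in both clones whichever tumor was left out, as did *Hist2h2ab* and *Hist2h2be* in clone 18.

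**Figure D5:**
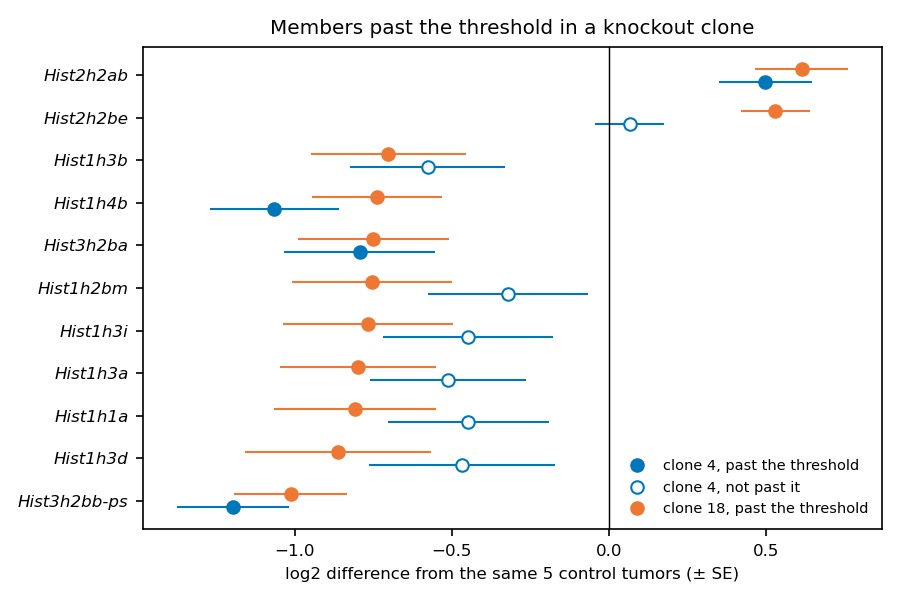
Log2 difference (± SE) of clone 4 and of clone 18 from the same 5 control tumors for the 11 members past the threshold in a clone, with filled points past an adjusted p of 0.05. *Hist3h2bb-ps* lies at -1.20 and -1.01 and *Hist1h4b* at -1.06 and -0.74, whereas *Hist2h2be* lies at 0.07 in clone 4 and 0.53 in clone 18.

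Between the clones, *Hist2h2be* was the only member past the threshold, 1 of 60 (1.67%), against 4.62% of all genes, 2.49% higher in clone 18 and 2.13% lower. *Hist2h2be* (chr3:96221119-96223738, plus strand) encodes an H2B, has an annotated transcript of 2620 bases and shared no window with another gene. Its normalized count was 718.4, 965.3, 827.2, 755.2 and 685.1 in control tumors 1 to 5, 967.2, 673.7, 961.9, 832.9 and 716.3 in clone 4 tumors 6 to 10, and 1127.7, 1193.5, 1155.8, 1147.7 and 1044.5 in clone 18 tumors 11 to 15. All 5 clone 18 tumors were above every tumor of the other groups, with 1044.5 as their lowest value against 967.2 in tumor 6, the highest of the rest. The log2 difference between clone 18 and clone 4 was 0.46 (SE 0.110, adjusted p = 0.0206), and without tumor 7 it was 0.39 (adjusted p = 0.0545). Within 50000 bases of *Hist2h2be*, *Gm20633* (0.51, limma adjusted p = 0.0243) and *Gm38227* (0.52, limma adjusted p = 0.0408) were also higher in clone 18 than in clone 4. No other gene there with a mean of at least 10 passed the threshold between the clones. Clone 18 was lower than clone 4 in the mean of 46 of 60 members and higher in 14, with a median log2 difference of -0.15 against -0.01 over all genes.

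Genes that make and handle histone mRNA were then counted. Of 12 genes of histone transcription, 1 rose and 1 fell in knockout tumors (16.7% called, against 22.1% of all genes). *Ccne1*, the cyclin E1 whose kinase acts on NPAT, rose (0.29, SE 0.081, adjusted p = 0.0156), and *Pou2f1*, which encodes the octamer-binding OCT1, fell (-0.31, SE 0.090, adjusted p = 0.0186). The coactivator gene *Npat* was at 2201.8 to 2457.3 normalized counts in control and 1819.5 to 2421.5 in knockout tumors (log2 difference -0.03, adjusted p = 0.779). *Hinfp*, a factor of H4 promoters, was at 1068.3 to 1201.1 and 917.6 to 1176.5 (-0.06, adjusted p = 0.548), and *Casp8ap2*, which encodes FLASH, at 2357.8 to 2682.8 and 2212.2 to 2894.5 (0.07, adjusted p = 0.469).

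Of 16 genes of 3′ end processing, 3 rose and 0 fell (18.8% called, against 22.1% of all genes). *Slbp*, whose product binds the stem-loop, was at 2864.2 to 3405.1 in control and 3140.4 to 4582.0 in knockout tumors and rose (0.24, SE 0.080, adjusted p = 0.0416). *Cpsf3*, the nuclease subunit that cuts the transcript, rose by 0.20 (SE 0.049, adjusted p = 0.00731), and *Snrpg* by 0.21 (SE 0.071, adjusted p = 0.0362). Of 10 genes of histone mRNA translation and decay, 1 (10.0%) rose, the exosome nuclease gene *Exosc10* (0.20, SE 0.064, adjusted p = 0.0356). The median log2 difference was 0.04 for the transcription list, 0.02 for processing and 0.00 for decay, against -0.02 over all genes.

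The share of histone chaperone genes called was below the 22.1% of all genes. The share that fell was above the 12.9% of all genes that were lower. Of 20 histone chaperone genes, 4 fell and 0 rose, with a list median of -0.05. These were *Hira* (-0.51, SE 0.126, adjusted p = 0.00726) and *Daxx* (-0.26, SE 0.058, adjusted p = 0.00431), which act in deposition of the variant H3.3, and *Chaf1b* (-0.28, SE 0.068, adjusted p = 0.00613), a subunit of the replication-coupled chaperone CAF-1, and *Supt16* (-0.23, SE 0.065, adjusted p = 0.0159), a subunit of FACT. Of 10 replication-independent histone genes tested of 11 listed, 1 (10.0%) fell, the H3.3 gene *H3f3b*, from 31920.5 to 37585.6 in control to 22302.2 to 33696.1 in knockout tumors (-0.37, SE 0.093, adjusted p = 0.00852).

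Of 27 DNA replication and proliferation genes, 3 rose and 2 fell (18.5% called, against 22.1% of all genes), with a list median of 0.06. The largest were *Prim1* (0.35, SE 0.070, adjusted p = 0.00178), *Cdc6* (0.29, SE 0.096, adjusted p = 0.0376), *Gins1* (-0.29, SE 0.080, adjusted p = 0.0151) and *Rrm1* (-0.27, SE 0.065, adjusted p = 0.00562). *Mki67*, a marker of cycling cells, was at 9037.0 to 15602.1 in control and 9400.8 to 15317.0 in knockout tumors (-0.13, adjusted p = 0.540), and *Pcna* at 19781.4 to 21699.0 and 19065.9 to 28005.0 (0.12), also short of the threshold. None of the 9 RNAs without a poly(A) tail passed the threshold between knockout and control in limma, edgeR or DESeq2 (1 at an unadjusted p under 0.05), with a median of 0.04. Of the same 9, 2 were lower in clone 4 than in control and higher in clone 18 than in clone 4, namely *Rnu11* and *Rnu12*, small nuclear RNAs of the minor spliceosome. They made 22.2% of the list in each comparison, against 16.8% and 4.62% of all genes. *Rnu11* differed by -0.43 and 0.63 and *Rnu12* by -0.55 and 0.49 in these comparisons, which share the clone 4 tumors.

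Genes of other cell types also differed between the groups, and in bulk tumors fewer cells of a type and less RNA per cell cannot be told apart. Of 12 T cell genes 6 fell and 0 rose, with summed normalized counts of 675.4 to 1823 in control, 517.2 to 862.1 in clone 4 and 505.2 to 664 in clone 18. Of 7 B cell genes 3 fell (1378 to 3092, 1167 to 2140 and 789.9 to 1162), and of 10 macrophage genes 6 fell (134300 to 207900, 116500 to 148100 and 104000 to 140200). Of 7 neutrophil genes 2 fell (930.2 to 2008, 666.5 to 4186 and 990.9 to 2098), of 7 red cell genes 1 rose (1236 to 4236, 3846 to 5667 and 1546 to 7648) and of 8 skeletal muscle genes 1 rose (2891 to 3355, 2870 to 5063 and 3892 to 7541). None of 10 endothelial genes passed in limma (1 at an unadjusted p under 0.05, and 1 in edgeR and in DESeq2), with sums of 7601 to 14950, 9278 to 16030 and 10180 to 12470. None of 9 fibroblast genes passed in limma, edgeR or DESeq2 (0 at an unadjusted p under 0.05), with sums of 53730 to 89810, 20100 to 194500 and 67700 to 133000. Of 9 renal epithelial genes 1 rose and 1 fell (114800 to 138500, 98530 to 128600 and 104400 to 120500). Among all genes, 22.1% passed in limma, 9.23% higher and 12.9% lower. The share called was above 22.1% in the T cell, B cell, macrophage and neutrophil lists. It was about 22.1% in the renal epithelial list and lower in the red cell, skeletal muscle, endothelial and fibroblast lists. No gene of these cell type lists was at 0 in every tumor. In tumor 2, the control tumor with the lowest member levels, the macrophage, red cell, T cell and endothelial sums were also the lowest of the control tumors, at 134300, 1236, 675.4 and 7601. Its renal epithelial sum was the highest of them, at 138500, and its other cell type sums were neither. In tumor 14, the macrophage and red cell sums were the lowest of clone 18, at 104000 and 1546. Its endothelial sum was the highest of clone 18, at 12470, and its other cell type sums were neither. The part of these cell types in the members' levels was not tested.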

How the data were processed

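RNA sequencing of 15 tumors was analysed, with 5 per group. The authors used TopHat2 (mm10) for alignment, HTSeq for gene counts and DESeq for normalization. Tool versions, annotation, strand setting and library kit are not given in the sources used here. The deposited values are normalized counts (signal divided by size factors, rounded to 1 decimal), from which whole reads were recovered: 100% of values up to 8000 lay within 0.055 of a whole multiple. The tumors held 32924414 to 49099168 reads on genes. Of 18279 genes, 29 were at 0 in every tumor and 18250 were tested.

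Log2(normalized count + 1) was fitted with limma 3.58.1 (R 4.3.3, mean-variance trend) for knockout against control, and in a fit of 3 groups for each clone and between clones. P-values are two-sided, adjusted by the Benjamini-Hochberg method over all genes, with a threshold of 0.05. Differences are on the log2(value + 1) scale, which understates changes of low genes. The alternatives were pseudocounts of 0.1 and 5, a mean of at least 10, upper quartile scaling, no trend, leaving out each tumor, and edgeR 4.0.16 and DESeq2 1.42.0 on recovered reads. Each fit was tested on simulated data. Positions and windows of 50 bases came from GENCODE M21 and promoters from RefSeq.

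Values in every tumor are given for the 10 members with the highest mean, for up to 8 rises and 8 falls past the threshold with knockout and for up to 6 members past it between the clones. From other lists, up to 4 called genes with the largest differences are named, beside *Slbp*, *Npat*, *Hinfp*, *Casp8ap2*, *Mki67* and *Pcna*. Members, lists and tests were chosen with earlier results of these data known.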

Additional observations from a re-analysis of the deposited data

Results flagged for a closer look

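In 96 groups of 5 tumors, covering 32 quantities, 3 held a tumor that stood apart by Dixon's 95% criterion, where chance gives about 1 in 20, or 4.8. *Hist3h2ba* stood at 224.4 normalized counts in control tumor 3, against 125.5 to 149.7 in the other control tumors. *Hist1h2bl* stood at 630.6 in clone 4 tumor 8, against 2684.6 to 3252.9. *Hist1h2bp* stood at 183.8 in clone 4 tumor 10, against 505.5 to 597.9. *Hist2h2be* differed between the clones, which share their controls, by 0.46 on the log2 scale in the direct test (limma adjusted p = 0.0206, all 5 clone 18 tumors above all 5 clone 4 tumors). The cause of these values was not tested.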

How the results depend on the processing

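Under the 7 alternatives that keep all tumors, the members called numbered 4 to 9 between knockout and control, 3 to 6 in clone 4 and 1 between the clones. In clone 18 they numbered 8 to 13, except 6 with limma without trend. In each of these fits and comparisons, the share called was smaller among the members than among all genes. With 1 tumor left out, the members called numbered 4 to 16 for knockout, 2 to 4 for clone 4, 4 to 23 for clone 18 and 0 to 1 between the clones. The share was again smaller among the members, except for knockout without tumor 2 and for clone 18 without tumor 2, 12 or 13. The counts of 16 (26.7%) and 23 (38.3%) came without tumor 2, with 17.6% and 21.4% of all genes called. The count of 0 came without tumor 7, where limma left 2 members at an unadjusted p under 0.05. *Hist3h2bb-ps*, *Hist1h4b*, *Hist3h2ba* and *Hist2h2ab* stayed past the threshold for knockout under all 15 fits without 1 tumor and all 7 others, with adjusted p up to 0.0481. *Hist1h3a* and *Hist1h3b* missed it without trend (adjusted p = 0.0629 and 0.0621). *Hist2h2be* passed it for knockout without tumor 7 (0.36). Small differences changed sign with 1 tumor left out, in ranges of -0.0396 to 0.0868 for *Hist1h1c* (negative without tumor 2 or 9), -0.0669 to 0.108 for *Hist1h2bb* (tumor 2 or 9), -0.0332 to 0.134 for *Hist1h1e* and -0.0824 to 0.187 for *Hist1h4c* (tumor 2), -0.273 to 0.0359 for *Hist4h4* (positive without tumor 3) and -0.139 to 0.0887 for *Hist2h2ac* (positive without tumor 3, 4, 7, 14 or 15). The mean share of counts on members ranged over 0.559% to 0.642% in control, 0.594% to 0.649% in clone 4 and 0.547% to 0.619% in clone 18. The causes were not tested. No paired analysis was possible because the numbers only name the tumors of a group and tie none to another group. Depth allowed at least 11 reads for every member in every tumor.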
